A study of Mus musculus with 28 samples.

Results

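The secreted Fgf ligands of the mouse molar were examined as a set of 10 genes, Fgf3, Fgf4, Fgf7, Fgf8, Fgf9, Fgf10, Fgf15, Fgf16, Fgf18, and Fgf20, out of 52636 genes in the RNAseq count table. The rows were selected by symbol, with no threshold on the measured values, and all 10 passed the filter on low counts that kept 19101 genes for testing. Fgf15 and Fgf16 passed it through the E14 teeth, as they did not pass in a fit of E13 and E16 alone, and Fgf8 did not pass in a fit of E14 and E16 alone. Each library of the main table was made from the first molar tooth germ of a wild type C57BL/6JOlaHsd embryo, taken at the bud stage (E13, labeled E13.5), the cap stage (E14, labeled E14.5) or the bell stage (E16, labeled E16.5). There were 7 teeth of each stage, from 7, 6, and 5 embryos, so that some left and right teeth share an embryo. A further 6 teeth of E15, from 6 embryos, are in a table of their own and are described apart. No embryo of the main table carried a mutation or received a treatment. The paper, from which strain and genotype were taken, describes mouse molars of E13, E14, and E16, and not of E15. The stages differ in age and also in side, as E14 had more right than left teeth, and E13 and E16 more left than right. Each stage came from embryos of its own, so age cannot be told apart from other differences between those embryos.

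Fgf ligands are secreted proteins that bind Fgf receptors on nearby cells, mostly together with heparan sulfate, and switch on the MAPK cascade and the transcription factors Etv4 and Etv5. In the molar, they carry messages in both directions between the dental epithelium and the mesenchyme beneath it. Fgf4, Fgf9, and Fgf20 are known from the enamel knot, the epithelial signaling center that directs cusp patterning and is marked by Shh, and Fgf8 and Fgf9 from the early oral epithelium. Fgf7 and Fgf10 are known from the mesenchyme, and Fgf3 from both the enamel knot and the mesenchyme. Fgf15, Fgf16, and Fgf18 were not assigned to a compartment here. These places are background knowledge, because a whole tooth germ contains all compartments and the counts do not tell them apart.

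Of the 10 ligands, 6 have a promoter in the RefSeq table of GRCm38.p6 (Fgf3, Fgf4, Fgf7, Fgf9, Fgf10, and Fgf18). The promoters of Fgf3 and Fgf4, which lie beside each other and both rose at E14, are shown with that of Fgf9, which did not. Each runs 5′ to 3′ from 250 bases before the RefSeq start to 50 bases after it, on the plus strand, at chr7:144838362-144838661, chr7:144861136-144861435, and chr14:58072436-58072735. Capitals mark matches to the TCF/LEF motif CTTTGN on either strand.
Fgf3: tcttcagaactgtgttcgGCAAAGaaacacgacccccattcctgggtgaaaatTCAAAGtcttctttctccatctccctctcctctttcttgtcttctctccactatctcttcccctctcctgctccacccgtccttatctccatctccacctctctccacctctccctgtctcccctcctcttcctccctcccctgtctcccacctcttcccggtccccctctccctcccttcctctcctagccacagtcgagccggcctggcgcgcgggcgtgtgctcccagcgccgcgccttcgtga
Fgf4: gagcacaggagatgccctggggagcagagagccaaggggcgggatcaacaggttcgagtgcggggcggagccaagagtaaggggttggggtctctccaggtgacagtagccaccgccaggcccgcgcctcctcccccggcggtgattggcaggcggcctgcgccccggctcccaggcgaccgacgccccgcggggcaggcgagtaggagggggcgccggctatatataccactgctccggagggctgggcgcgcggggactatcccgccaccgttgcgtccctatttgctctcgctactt
Fgf9: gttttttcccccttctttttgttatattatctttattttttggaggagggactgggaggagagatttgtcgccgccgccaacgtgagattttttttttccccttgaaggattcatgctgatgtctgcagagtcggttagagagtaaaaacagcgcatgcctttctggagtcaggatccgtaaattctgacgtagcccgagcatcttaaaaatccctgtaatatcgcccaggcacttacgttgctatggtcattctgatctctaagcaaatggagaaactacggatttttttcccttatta
The Fgf3 window held 2 matches to CTTTGN, whereas those of Fgf4 and Fgf9 held 0. Fgf7 held 2 matches, Fgf10 held 1, and Fgf18 held 0. Of all 32851 promoters in the table, 53.8% held at least 1. The short ETS core GGAA, searched on both strands and able to overlap other motifs, was found 5 times in the Fgf3 window, 3 times in that of Fgf9, and 0 times in that of Fgf4, and 96.0% of all promoters held it. None of the 6 windows held the exact string TATAAA, which was in 13.6% of all promoters. The Fgf4 window held the similar string tatatata, which this search does not count. A match is only a string of letters and not a binding site. The RefSeq starts of Fgf3, Fgf4, and Fgf9 lie inside the longer Ensembl gene spans used for counting.

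Between 17814073 and 27115729 reads per library were counted on genes. A library that stands apart is the left tooth of embryo 3 at E16 (E16 replicate 1). It had the smallest total. Its summed level of the primary enamel knot markers was the lowest at E16, 368 CPM (counts scaled to library size by TMM) against 663 to 817 in the other E16 teeth. Also lowest were its sums of the epithelial, mesenchymal, osteoblast, cartilage, neuron and Schwann cell, endothelial, and macrophage markers, but not those of muscle and red cells. The TMM factor of this library, 1.19, was the highest of all. Its Shh count was 1083, against 3235 to 5546 in the other E16 teeth. The lowest TMM factor, 0.850, was that of E16 replicate 5, which also had the highest red cell sum of its stage, 99.9 CPM. The factors of the remaining libraries were between 0.95 and 1.04. The left tooth of embryo 10 at E13 (E13 replicate 7) had the highest enamel knot sum of its stage, 268 CPM against 221 to 238 in the other E13 teeth. It also had the highest Shh count, 169 against 21 to 141. All calls for the ligands were therefore also made without both E16 replicate 1 and E13 replicate 7, and are given below where they differ. E16 replicate 5 was left out only on its own. Over all genes tested, 11.3% rose and 8.47% fell from E13 to E14, and 15% rose and 13.1% fell from E14 to E16. Of the marker list of the primary enamel knot, which the authors describe as active at E14, 9 of 10 genes rose in the first step and 6 of 10 in the second. Lef1 was the largest part of its sum on average (150 of 234 CPM at E13, 290 of 699 at E16), and Shh was at 4.30 and 158 CPM. Of the epithelial list, 8 of 8 genes rose and then 7 of 8, and its summed level went from 845 to 1428 and 2664 CPM on average. Of the mesenchymal list, 1 rose and 2 fell of 8 in the first step, and 0 rose and 5 fell in the second. Among markers of other cells, those of skeletal muscle reached a sum of 209 CPM in E13 replicate 5 (E13 median 7.97). Fewer cells of a type and less RNA per cell cannot be told apart in whole teeth.

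Most of the ligands were highest in the cap stage teeth. From E13 to E14, 7 of 10 ligands were called against 19.7% of all genes tested (3767 genes). Of these 7 ligands, 6 rose (Fgf3, Fgf4, Fgf7, Fgf15, Fgf16, and Fgf20) and 1 fell (Fgf8), where 11.3% of all genes rose and 8.47% fell. Without E16 replicate 1, 5855 genes were called in this step, and the same number of ligands. Without that tooth and E13 replicate 7, 15.8% of 19148 genes tested rose and 12.5% fell. The share of all genes beside the ligands was thus larger in these fits. From E14 to E16 the direction turned around, as all 10 were called against 28.1% of all genes, and 8 fell and 2 rose (Fgf9 and Fgf10), where 13.1% of all genes fell and 15% rose. The median log2 fold change of the 10 genes was 1.10 in the first step and −1.50 in the second, beside −0.01 and 0.00 over all genes. Both steps share the E14 teeth. Fgf15 and Fgf16 passed the filter through the E14 teeth, where they were highest, so their calls in both steps are not independent of the filter. Fgf8, counted in the second step, would not have passed with the E14 and E16 teeth alone. The counts above include these genes. The teeth of the 2 stages did not overlap in CPM for 5 ligands in the first step and 6 in the second, as was the case for 9.91% and 10.9% of all genes. Over the whole interval from E13 to E16, 6 of 10 were called against 41.3% of all genes, 4 higher and 2 lower (21.6% and 19.6% of all genes), and 4 were not called (Fgf7, Fgf10, Fgf15, and Fgf16). Of the 4 higher ones, Fgf20 was not called when teeth of an embryo were summed. All calls are from the quasi-likelihood test of edgeR at an adjusted p below 0.05.

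**Figure D1:**
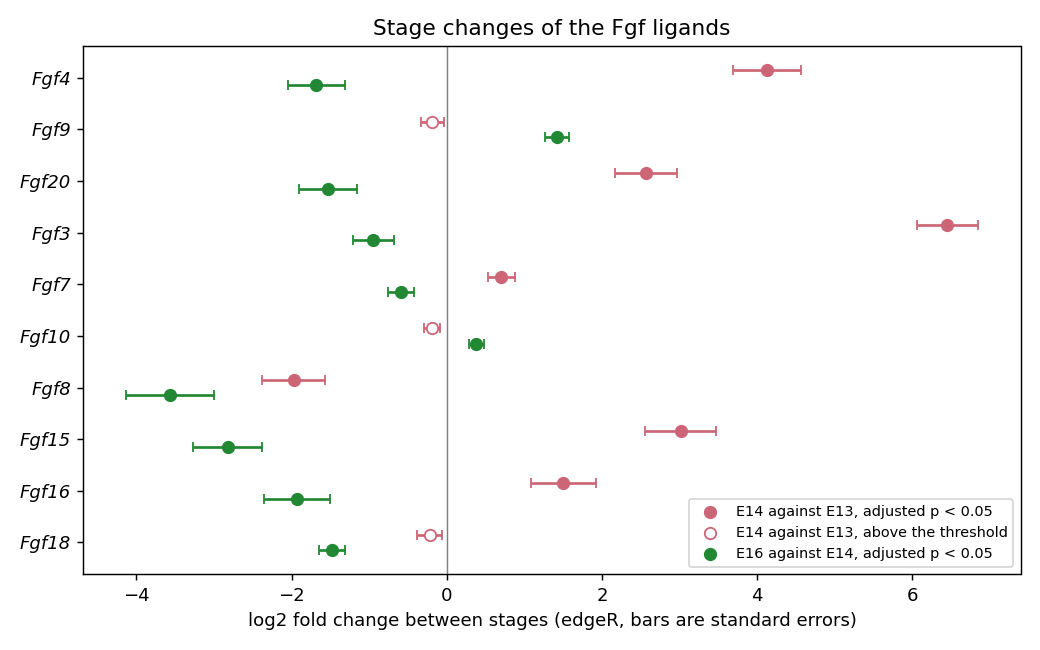
Log2 fold change (horizontal axis) of each ligand at E14 against E13 (red) and at E16 against E14 (green), with standard errors; filled points pass an adjusted p of 0.05. In the first step 6 ligands lie to the right and Fgf8 to the left among filled points, and in the second step Fgf9 and Fgf10 alone lie to the right.

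Among the enamel knot ligands, Fgf4, which has long served as a marker of the knot, was nearly silent in the bud. Its counts were 1 to 37 at E13 (median 6), 122 to 270 at E14 (median 185), and 32 to 88 at E16 (median 63). The only E13 tooth above 10 counts was replicate 7, and even this tooth was below all E14 teeth. Mean levels were 0.480 ± 0.668, 8.10 ± 2.68, and 2.52 ± 0.666 CPM (SD, n = 7 per stage). The rise to E14 was 17.5-fold (log2 4.13 ± 0.44 SE, edgeR adjusted p = 1.94e-07), and the fall to E16 3.20-fold (−1.68 ± 0.36, edgeR adjusted p = 0.000991). Leaving out E13 replicate 7 raised the first log2 change of Fgf4 to 5.08, and its change over the whole interval from 2.45 to 3.41.

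Fgf20, which acts downstream of the ectodysplasin pathway in the tooth, had the same order of stages at a lower level. Its counts were 2 to 25 at E13, 26 to 109 at E14, and 13 to 47 at E16, with medians of 8, 64, and 20. In CPM the highest E13 tooth, again replicate 7 with 1.33, lay above the lowest E14 tooth with 1.15, so that the ranges overlapped. Fgf20 rose 5.91-fold (log2 2.56 ± 0.40, edgeR adjusted p = 4.78e-05) and then fell 2.89-fold (−1.53 ± 0.37, edgeR adjusted p = 0.00280). Its difference between E13 and E16 was near the threshold (1.03 ± 0.41, edgeR adjusted p = 0.0444), and was not called when the teeth of an embryo were summed (edgeR adjusted p = 0.0893) or when any 1 of several teeth was left out.

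Fgf9 did not share this course. This ligand, of the same subfamily as Fgf20, was already present in the bud, with 103 to 227 counts at E13, 116 to 203 at E14, and 252 to 559 at E16. All E16 teeth were above all teeth of the earlier stages in CPM, whereas E13 and E14 overlapped. The means were 7.24 ± 1.70, 6.38 ± 1.18, and 17.1 ± 3.18 CPM. The change to E14 was not called (log2 −0.18 ± 0.15, edgeR adjusted p = 0.437), and Fgf9 then rose 2.68-fold (1.42 ± 0.15, edgeR adjusted p = 1.05e-07). The epithelial markers rose in this step as well, and their part in the result was not tested.

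Ratios within a library do not depend on the scaling between libraries, save where counts are near 0 and the added count of 1 weighs. These ratios separated the enamel knot ligands from each other. The log2 ratio of Fgf4 to Fgf9 counts went from −4.44 ± 1.33 at E13 to 0.30 ± 0.42 at E14 and −2.77 ± 0.48 at E16 (SD, n = 7). That of Fgf9 to Fgf20 went from 4.10 ± 1.01 to 1.29 ± 0.67 and back to 4.16 ± 0.57. Both ratios thus had their extreme at the cap stage. Each of these 4 steps passed an exact two-sided permutation test over all 3432 splits of the teeth, with adjusted p between 0.000932 and 0.00117 over 8 tests, where the smallest p the splits allow is 0.000583.

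**Figure D2:**
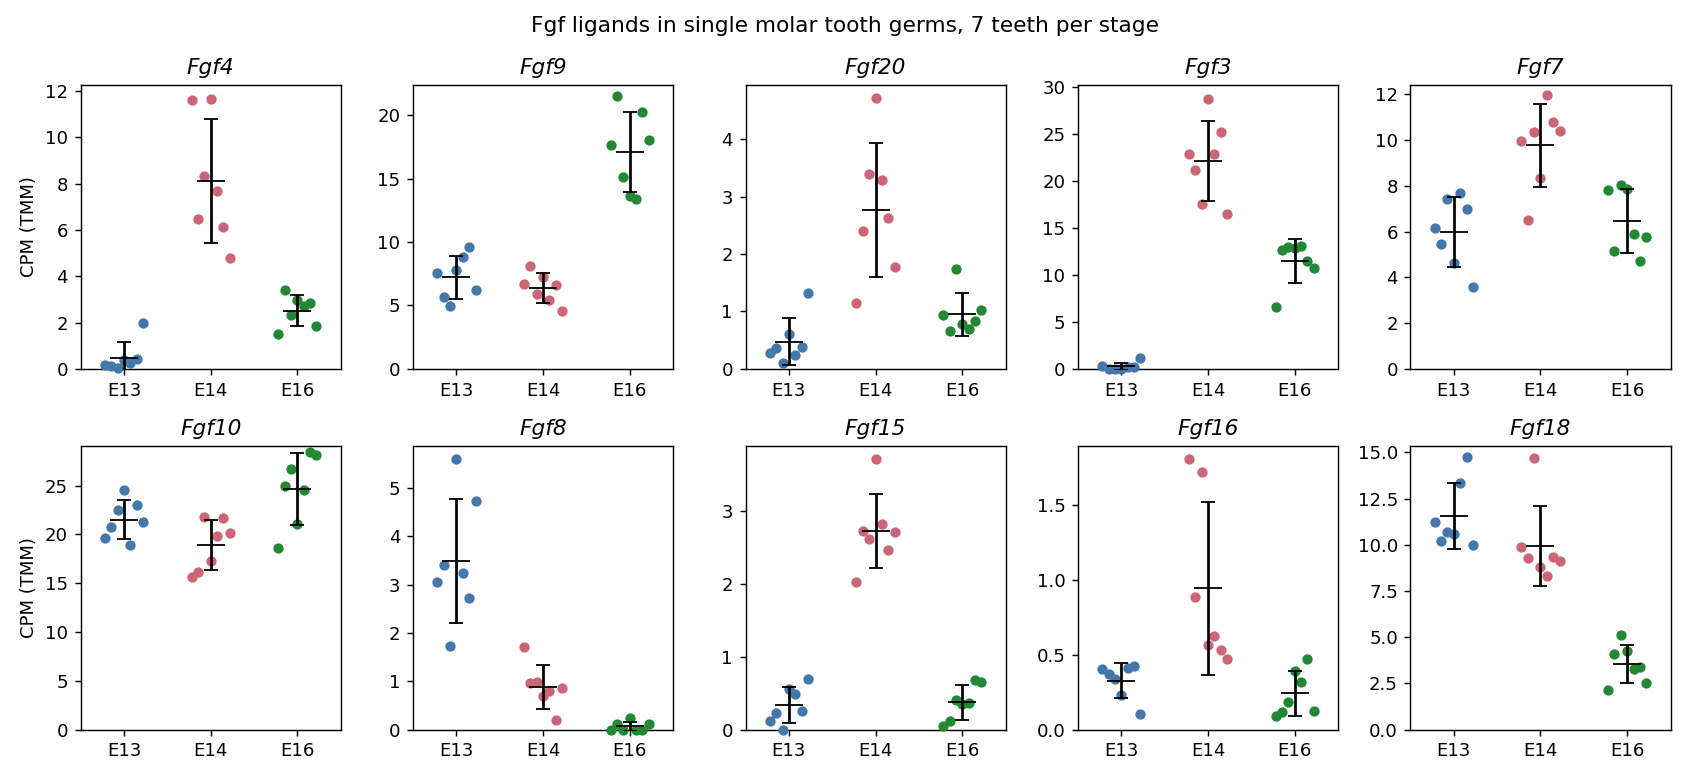
Level of each ligand in CPM (vertical axes, each starting at 0 with its own scale) in single teeth of E13 (blue), E14 (red), and E16 (green); black bars are the mean and SD of 7 teeth. Fgf3, Fgf4, Fgf15, Fgf16, and Fgf20 are highest at E14, Fgf9 at E16, and Fgf8 at E13.

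Fgf3, known both from the enamel knot and from the mesenchyme, had the largest change of the 10 ligands from E13 to E14. At E13 its counts were 7, 0, 0, 0, 6, 4, and 21 in replicates 1 to 7, where a count of 0 allows up to 0.138 to 0.145 CPM (3 counts, counting error only). They were 418 to 665 at E14 (median 527), and 140 to 350 at E16 (median 317). The gene thus went from at most 1.12 CPM in every bud to at least 16.4 CPM in every cap stage tooth. The rise was 87.7-fold (log2 6.45 ± 0.39, edgeR adjusted p = 1.69e-11), and 7.42 on the log2 scale without E13 replicate 7. At E16 all teeth were below all E14 teeth, a 1.93-fold fall (−0.94 ± 0.26, edgeR adjusted p = 0.00819). The lowest E16 tooth was replicate 1 with 6.60 CPM, and Fgf3 was also called without this tooth (−0.83, edgeR adjusted p = 0.00656). With DESeq2 the fall of Fgf3 was not called (−0.94, adjusted p = 0.0988).

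The mesenchymal ligands Fgf7 and Fgf10, which signal to the epithelium through the IIIb form of Fgfr2, had the smallest folds among the called changes. Fgf7 had 67 to 188 counts at E13, 162 to 288 at E14, and 111 to 218 at E16, with overlap between all stages in CPM. It rose 1.63-fold (log2 0.70 ± 0.17, edgeR adjusted p = 0.00455) and fell 1.51-fold (−0.59 ± 0.17, edgeR adjusted p = 0.00974). Fgf10 had 401 to 542, 354 to 557, and 394 to 784 counts, and its lowest and highest teeth over all stages were at 15.6 and 28.5 CPM. Its change to E14 was not called (−0.19 ± 0.10, edgeR adjusted p = 0.214), and the rise to E16 was 1.30-fold (0.38 ± 0.10, edgeR adjusted p = 0.00601).

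Fgf7 and Fgf10 also parted from each other. The log2 ratio of their counts went from −1.88 ± 0.45 at E13 through −0.96 ± 0.22 in E14 teeth to −1.94 ± 0.49 in E16 teeth, so that Fgf7 was relatively highest in the cap. The ratio of Fgf3 to Fgf10 was −7.09 ± 1.87, 0.21 ± 0.40, and −1.12 ± 0.28. All 4 differences passed the same exact permutation test (adjusted p between 0.000932 and 0.00117), and 8 of 8 ratio tests passed in all. In E13 replicates 2, 3, and 4, Fgf3 had 0 counts. Their ratios to Fgf10 (−8.82, −8.87, and −9.04) were set by the added count of 1 and the Fgf10 count.

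**Figure D3:**
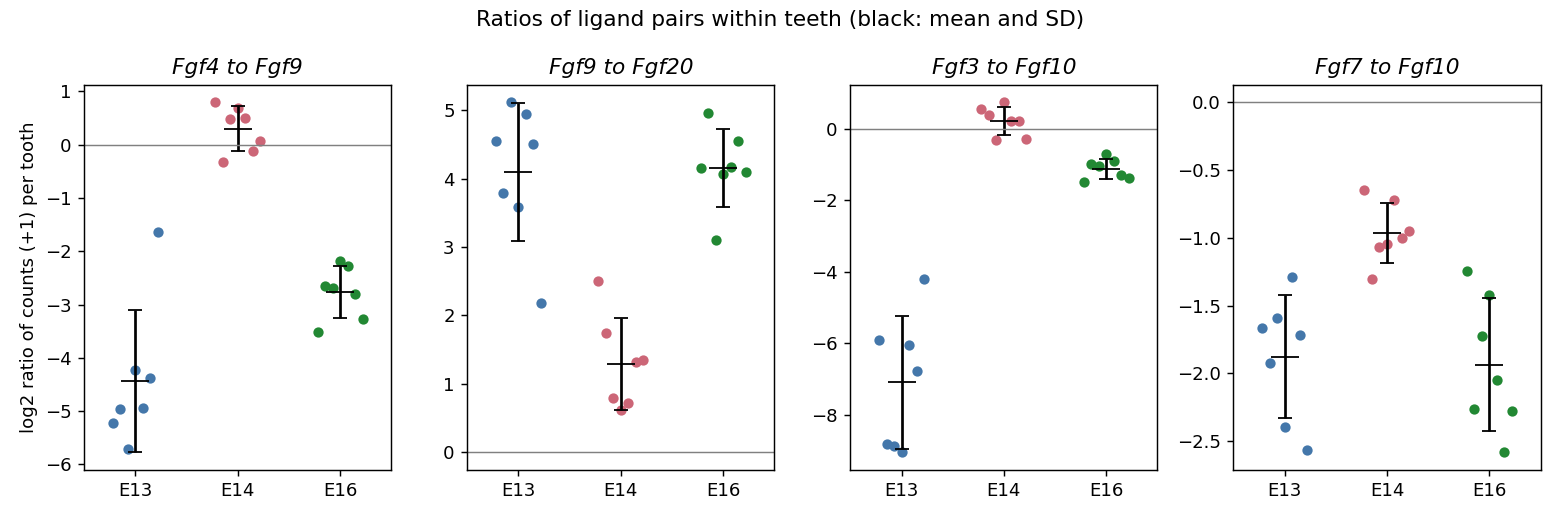
Log2 ratio of the counts (with 1 added) of 4 ligand pairs in single teeth (vertical axes) at E13 (blue), E14 (red), and E16 (green); black bars are the mean and SD of 7 teeth. The ratio of Fgf4 to Fgf9 goes from −4.44 to 0.30 and back to −2.77, and E13 replicate 7 is the highest E13 tooth in this panel.

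Fgf8, an early signal of the oral epithelium, was the only ligand to fall in both steps. Its counts were 36 to 120 at E13 (median 75), 5 to 39 at E14 (median 22), and 0, 3, 0, 6, 0, 0, and 3 in E16 replicates 1 to 7. All E13 teeth were above all later teeth in CPM, and 4 E16 teeth had no count, which allows up to 0.109 to 0.159 CPM. The falls were 3.93-fold (log2 −1.97 ± 0.41, edgeR adjusted p = 0.00106) and 11.9-fold (−3.57 ± 0.56, edgeR adjusted p = 2.88e-05). The second one rests on few counts, as without E16 replicate 4 the log2 change of Fgf8 was −4.24, and from E13 to E16 it was −6.22 in place of −5.54.

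Fgf15, the mouse counterpart of human FGF19, was highest at the cap stage. Both Fgf15 and Fgf16 passed the filter through the E14 teeth, so their calls in both steps are not independent of it. It had 0 to 13 counts at E13, 46 to 86 at E14, and 1 to 19 at E16, and the E14 teeth did not overlap with either of the others. Fgf15 rose 8.10-fold (log2 3.02 ± 0.46, edgeR adjusted p = 3.51e-05) and fell 7.09-fold (−2.83 ± 0.45, edgeR adjusted p = 2.88e-05), and E13 and E16 were not told apart (0.19 ± 0.49, edgeR adjusted p = 0.787). Fgf16, in the same subfamily as Fgf9 and Fgf20, was also highest at E14, at counts of 2 to 10, 12 to 44, and 2 to 13. Its log2 changes were 1.50 ± 0.42 (edgeR adjusted p = 0.0126) and −1.93 ± 0.43 (edgeR adjusted p = 0.00125), and E14 replicates 1 and 3, with 1.81 and 1.72 CPM, were well above the E14 median of 0.624.

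Fgf18, known for its part in bone and cartilage, was the highest ligand per length in the bud and had declined by the bell stage. It had 188 to 347 counts at E13, 200 to 376 at E14, and 45 to 138 at E16. The E16 teeth were below all others in CPM, and the fall was 2.78-fold (log2 −1.48 ± 0.17, edgeR adjusted p = 2.17e-07) after a change to E14 that was not called (−0.22 ± 0.16, edgeR adjusted p = 0.357). E14 replicate 3 had the highest Fgf18 of its stage, 14.7 CPM, and the lowest sum of the osteoblast markers, 161 CPM. The highest sum, 894 CPM, was in E14 replicate 7, where Fgf18 was at 9.13 CPM. Of the tested osteoblast markers, 1 of 5 rose and 1 of 5 fell from E14 to E16 (15% and 13.1% of all genes), and the part of bone cells in the Fgf18 values was not tested.

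Levels of different genes were compared in CPM per kb of exon. In the bud Fgf18 (9.73 ± 1.51) was above all others, followed by Fgf10 (4.68 ± 0.427), Fgf8 (2.59 ± 0.951), Fgf7 (1.84 ± 0.471), and Fgf9 (1.56 ± 0.365), of which each overlapped with the next. The other 5 ligands were each below 0.3 on average. In the cap Fgf3 (9.50 ± 1.83) and Fgf18 (8.36 ± 1.82) overlapped with each other and stood above Fgf10 (4.11 ± 0.556), and below it each ligand overlapped with the next, down to Fgf16 (0.573 ± 0.350). In the bell stage Fgf10 (5.36 ± 0.798), Fgf3 (4.93 ± 0.994), Fgf9 (3.68 ± 0.684), Fgf18 (2.99 ± 0.867), and Fgf7 (1.99 ± 0.433) each overlapped with the next and were all above the other 5.

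Summed per length, the 10 ligands gave 21.2 ± 2.04 CPM per kb at E13, 32.7 ± 3.16 at E14, and 20.6 ± 2.37 at E16, and every E14 tooth (lowest 27.7) was above every other tooth (highest 24.4). The make-up of this sum changed at each stage. The share of Fgf18 was 45.7% ± 4.37, 25.6% ± 4.50, and 14.3% ± 2.91, and that of Fgf8 was 12.2% ± 4.26, 2.03% ± 1.02, and 0.237% ± 0.326. Fgf3 took 0.520% ± 0.809, 29.1% ± 4.60, and 23.7% ± 3.24. The enamel knot ligands Fgf4, Fgf9, and Fgf20 together took 9.27% ± 2.12, 16.9% ± 2.88, and 24.6% ± 3.75. Within that group Fgf9 had 4.22% at E14 and 18.1% at E16, and Fgf4 7.67% and 3.79%. The share of the mesenchymal pair of Fgf7 and Fgf10 was 30.9% ± 3.60, 21.9% ± 3.69, and 35.9% ± 3.07. It was lowest at E14 although Fgf7 itself was called higher there, as the sum of all 10 was larger.

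**Figure D4:**
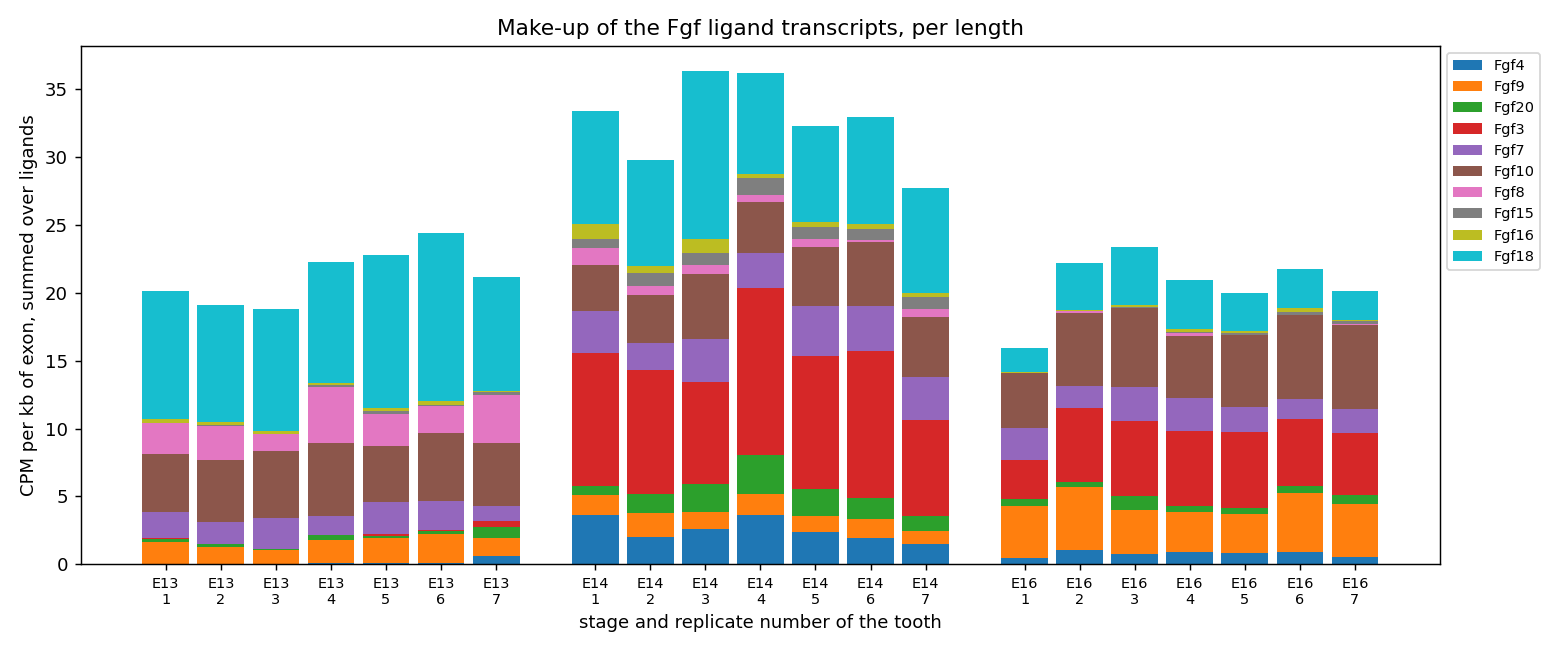
CPM per kb of exon (vertical axis) of the 10 ligands, stacked for each of the 21 teeth (horizontal axis, stage and replicate number). The E14 columns are the tallest (27.7 to 36.4), Fgf8 is visible mostly at E13, Fgf3 at E14 and E16, and the share of Fgf18 shrinks from 45.7% to 14.3% on average.

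Among the ligands that rose at E14, Fgf3, Fgf4, and Fgf15 lie beside each other on chromosome 7 of GRCm38 in the same orientation. In the Ensembl gene models, Fgf3 (144838083 to 144844436) is separated from Fgf4 (144847367 to 144865243) by 2930 bp, and Fgf4 from Fgf15 (144896531 to 144900953) by 31287 bp. Of the 14 protein-coding genes within 500 kb of the trio, the trio included, 13 were tested. All 3 ligands rose at E14 and fell at E16, whereas Ccnd1 and LTO1, the next genes on the side of Fgf15, were not called in either step (Ccnd1 0.01 ± 0.18 and 0.23 ± 0.18 on the log2 scale). Among the other neighbors, Ano1 (0.56 ± 0.15) and Mrgprf (1.46 ± 0.49) rose at E14, and Tpcn2 fell (−0.47 ± 0.12). At E16, Shank2 was the only neighbor called, and it rose (1.27 ± 0.13). By the point estimates, Fgf3 had the largest rise and the smallest fall, and Fgf15 the smallest rise and the largest fall. As Fgf15 passed the filter through the E14 teeth, its calls are not independent of the filter.

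**Figure D5:**
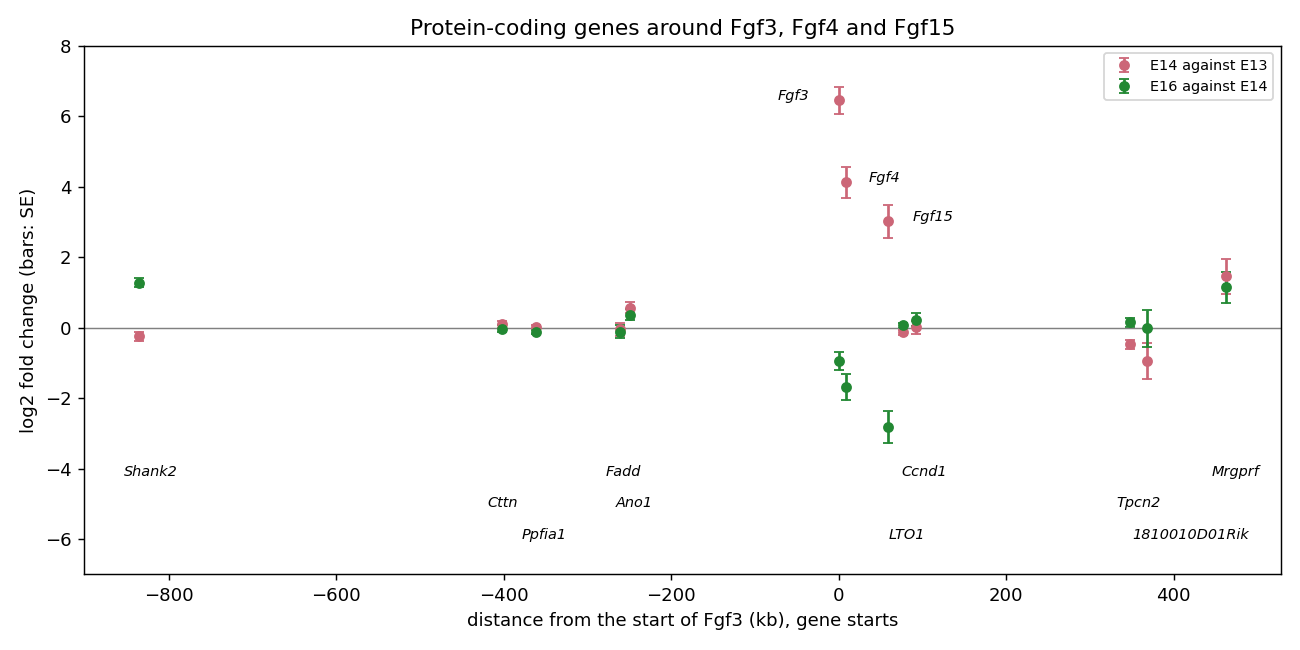
Log2 fold change with SE (vertical axis) of the 13 tested protein-coding genes around Fgf3, Fgf4, and Fgf15 against the distance of their starts from that of Fgf3 in kb (horizontal axis), at E14 against E13 (red) and E16 against E14 (green). The 3 ligands are the highest red points (6.45, 4.13, and 3.02) and the lowest green points (−0.94, −1.68, and −2.83), and names near the bottom mark the other genes at their horizontal position.

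Some ligands overlap with other annotated genes, and whether the counting used strand is not given in the sources used here. Fgf20 (minus strand) overlaps with Mir7666 and with Micu3 on the plus strand, and Micu3 was at 24.4, 23.9, and 24.5 CPM in the 3 stages. Fgf10 overlaps with the antisense gene Gm16263 (3.53, 2.59, and 3.21 CPM), and Fgf7, Fgf9, and Fgf15 with genes that were below 0.25 CPM on average at every stage. Fgf3, Fgf4, Fgf8, Fgf16, and Fgf18 have no such overlap.

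Of the remaining 12 members of the family, 7 passed the filter. From E13 to E14, 3 of 7 rose and 0 fell (11.3% and 8.47% of all genes), and from E14 to E16, 0 rose and 5 of 7 fell (15% and 13.1%). Fgf1 had the clearest pulse with 1.50, 5.92, and 2.97 CPM (log2 1.98 ± 0.22 and −0.99 ± 0.21). Fgf2 followed with 27.8, 36.3, and 28.3 CPM, and Fgf11, one of the intracellular Fgf homologs, rose from 12.3 to 17.1 CPM and was not called at E16. The intracellular Fgf12, Fgf13, and Fgf14 fell at E16. Fgf5, Fgf6, Fgf21, Fgf22, and Fgf23 did not pass the filter.

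Of 7 receptor and co-receptor genes, 6 were tested. Fgfr1 rose at E14 from 379 to 477 CPM (log2 0.33 ± 0.08, edgeR adjusted p = 0.00471). Fgfr2, the receptor of Fgf7 and Fgf10, rose at E16 from 274 to 473 CPM (0.79 ± 0.08, edgeR adjusted p = 4.53e-08), as did Fgfr3 from 40.3 to 55.9 CPM. Fgfr4 and the decoy-like receptor Fgfrl1 fell at E14. The E13 teeth ranged from 0.266 to 8.31 CPM in Fgfr4 and covered all E14 teeth (0.352 to 1.30). Of the 5 tested muscle markers, 0 rose and 1 fell in the same step (11.3% and 8.47% of all genes). The 1 that fell was Myog, from 3.87 ± 5.74 to 0.525 ± 0.311 CPM. The part of muscle in the Fgfr4 values was not tested. The alpha-klotho gene Kl fell at E16, and Klb, the co-receptor of Fgf15, did not pass the filter, with at most 0.441 CPM in any tooth. The counts do not distinguish the IIIb and IIIc forms of the receptors.

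Among genes known as targets and feedback inhibitors of Fgf signaling, 7 of 13 tested rose and 0 fell from E13 to E14 (11.3% and 8.47% of all genes), and 0 rose and 10 fell from E14 to E16 (15% and 13.1%). Spred3, Il17rd, and Flrt3 were called in neither step. Without E13 replicate 7 and E16 replicate 1 the counts were 8 and 0 (15.8% and 12.5% of all genes), and 0 and 10 (18.1% and 17.2%). Etv4 went from 10.4 ± 4.28 to 73.5 ± 9.57 and 39.5 ± 6.86 CPM (log2 2.82 ± 0.19, then −0.90 ± 0.18). The phosphatase gene Dusp6, which dampens ERK, went from 99.1 to 261 and 127 CPM, with E13 teeth at 70.2 to 127 and E14 teeth at 223 to 335 (1.40 ± 0.14, then −1.03 ± 0.14). Etv5 (1.11 ± 0.19, then −0.95 ± 0.19) and Spry4 (0.91 ± 0.19, then −0.66 ± 0.18) rose and fell as well, together with Spry1, Etv1, and Egr1. Spry2 was not called at E14 (0.16 ± 0.16) and fell at E16 (−0.44 ± 0.16). Egr1 varied widely at E14, from 41.7 to 496 CPM. The median log2 fold changes of the 13 genes were 0.50 and −0.45. From E13 to E16, 5 of 13 were higher and 0 lower (21.6% and 19.6% of all genes), and 7 were higher without the 2 teeth. E16 replicate 1 had the lowest sum of these genes at its stage, 564 CPM against a median of 871.

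The genes with courses most like those of the ligands were found by the Pearson correlation of log2(CPM + 1) over the 21 teeth, among 14558 protein-coding genes. These values describe mostly the 3 stages, since teeth of a stage cluster, and no test was made. Nearest to Fgf3 were Nav2 (r = 0.98), Itga6 (0.98), and Epha2 (0.98), and to Fgf4 Egr3 (0.96), Fgf1 (0.94), and Adcy7 (0.94). Nptx2 (0.98) was nearest to Fgf15, Gad1 (0.93) to Fgf20, Rspo2 (0.94) to Fgf9, Kcns2 (0.96) to Fgf8, Cdon (0.97) to Fgf18, Slc44a3 (0.87) to Fgf7, and Phyh (0.83) to Fgf10. Fgf16, below 1 CPM on average, was not included.

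After the mean of each stage was subtracted, so that only differences between teeth of the same stage remain, Nptx2 stayed nearest to Fgf15 (r = 0.80) and Gad1 to Fgf20 (0.76), and Egfl6 (0.90) and Osr1 (0.85) were nearest to Fgf18. Fgf3 was the second nearest gene of Fgf4 on this scale (0.77), and 0.51 without E13 replicate 7 and E16 replicate 1 (n = 19). Shh was taken from the marker list of the primary enamel knot. Its r with Fgf3 was 0.78 with all teeth and 0.50 without these 2 teeth, and that with Fgf4 0.63 and 0.36. Within E14, which holds neither tooth, r was 0.81 for Fgf3 with Shh, 0.57 for Fgf3 with Fgf4, and 0.44 for Fgf4 with Shh (n = 7). The rank correlations (Spearman) of these pairs within E14 were lower, 0.61, 0.54, and 0.29. With stage means subtracted and without the 2 teeth, they were 0.52, 0.31, and 0.39 (n = 19). On average, Shh rose from 57.5 CPM at E14 to 158 CPM at E16. In the same step Fgf3 fell from 22.1 to 11.5 CPM and Fgf4 from 8.10 to 2.52 CPM. Whether Shh reflects the enamel knot at E16 was not tested, which limits the r values that include E16 teeth. For Fgf15 and Fgf20, r was 0.61 with all teeth, and 0.79, 0.84, and 0.21 within E13, E14, and E16.

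For E15, the table of salmon estimated counts was used, with 6 teeth from 6 embryos beside the E13 and E16 teeth. The E15 teeth were deposited apart from the others, so stage cannot be told apart from any other difference between the 2 deposits. The values are given side by side without a test. In this table the ligands of the E13 and E16 teeth had between 87.1% and 98.4% of their HTSeq counts. The E15 means of Fgf3 (9.60 ± 2.34 CPM, n = 6), Fgf4 (2.73 ± 0.895), Fgf8 (0.412 ± 0.388), Fgf9 (11.0 ± 2.67), and Fgf18 (9.04 ± 5.45) lay between those of E13 and E16. For Fgf9 these were 7.60 and 19.4 CPM, with E15 in the middle.

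The E15 means of Fgf7 (11.8 ± 5.41), Fgf10 (29.6 ± 6.75), Fgf15 (1.06 ± 0.350), Fgf16 (0.530 ± 0.303), and Fgf20 (4.34 ± 3.85 CPM) were above both E13 and E16. Fgf20 varied most between E15 teeth among these, with 1.73, 2.75, 0.751, 11.5, 5.11, and 4.20 CPM in teeth of embryos 1, 3, 4, 5, 6, and 8. Fgf7 had 8.92, 9.78, 3.50, 13.6, 17.2, and 17.5 CPM in the same teeth, and Fgf18 6.58, 6.59, 8.91, 3.38, 9.51, and 19.3. The tooth of embryo 5 thus had the highest Fgf20 and the lowest Fgf18, and that of embryo 8 the highest Fgf18.

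The left and right teeth of 1 embryo could be compared in 3 embryos, 1 of E14 and 2 of E16. Fgf3 differed between the sides by −0.14, 0.01, and 0.09 on the log2(CPM + 1) scale (right minus left), and Fgf9 by −0.24, 0.14, and 0.16. The largest differences between sides were those of Fgf20 in embryo 6 of E16 (0.62) and of Fgf8 in embryo 6 of E14 (0.57, from counts of 5 and 19). With 3 embryos no test of side was made.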

How the data were processed

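Tooth germs were sequenced as single teeth, those of E13, E14, and E16 from wild type mice, and the groups were taken from the sample labels. The authors checked and trimmed the 84 bp reads (FastQC, AfterQC, Trimmomatic), mapped them to GRCm38 using STAR and Ensembl release 90 genes, and deposited HTSeq read counts per gene. The second table deposited by the authors holds salmon estimated counts (Salmon 0.99.0 per the labels), given as whole numbers. Symbols and exon lengths came from GENCODE M21. The fit was made with edgeR 4.0.16 (R 4.3.3) on 21 teeth with a factor for stage, TMM, and filterByExpr, adjusted with Benjamini-Hochberg over 19101 genes; 21.2% was the coefficient of variation between teeth beyond counting error. Ratios used counts plus 1 and exact permutation tests (scipy 1.17.1). The fits were tested on simulated data. Teeth were treated as replicates although some share an embryo, so that p values measure the spread between teeth; no pair of libraries agreed within sampling noise. Genes named are the 10 ligands, called genes of the fixed Fgf lists, neighbors within 500 kb, and the 3 nearest genes by correlation; gene overlaps were added after the values were seen. The members and lists were chosen with earlier results of these data known. Alternatives were other size factors, DESeq2 1.42.0, no filter, summed embryos, side, 2 stages only, the salmon table, a pseudocount of 0.5, longest transcripts, and each tooth left out.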

Additional observations from a re-analysis of the deposited data

Results flagged for a closer look

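In each stage and for each ligand, the highest and the lowest tooth were compared with the range of the 7 teeth by the test of Dixon. A tooth stood apart in 6 of 30 groups, and chance gives about 1 in 20 for independent, normally distributed values. Some groups hold counts near 0 and the groups share libraries, so this rate does not strictly apply here. E13 replicate 7 was the tooth apart in 3 of them, with the highest Fgf3 (1.12 CPM, next 0.285), Fgf4 (1.97 CPM, next 0.425), and Fgf20 (1.33 CPM, next 0.606) of its stage. E16 replicate 1 had the lowest Fgf3 at E16 (6.60 CPM, next 10.8). E14 replicate 3 had the highest Fgf18 at E14 (14.7 CPM, next 9.87), and E16 replicate 3 the highest Fgf20 at E16 (1.74 CPM, next 1.02).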

How the results depend on the processing

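The numbers of ligands called stayed within 1.5 times of 7, 10, and 6 for E13 to E14, E14 to E16, and E13 to E16 under all alternatives run, and all 8 ratio tests passed under each alternative run for them. With only 10 ligands this margin is wide, and a count of 10 cannot be exceeded. The single calls that changed are therefore the better guide. Of the values of single ligands, 14 lost the call, 2 gained it, and 3 changed sign, none of the last being called. Fgf15 from E13 to E16 ranged from −0.01 to 0.63 on the log2 scale, and was −0.00888 without E13 replicate 3 and −0.0121 without E16 replicate 6. Fgf7 from E13 to E16 was −0.0330 without E13 replicate 7 and E16 replicate 1 (0.0312 to 0.195 with 1 tooth left out), an alternative chosen after seeing the data. Fgf3 from E14 to E16 lost its call with DESeq2 (adjusted p = 0.0988; edgeR alternatives were as low as 0.000118). The other 13 lost calls were of Fgf20 from E13 to E16, among them with the salmon table (edgeR adjusted p = 0.142), summed embryos (0.0893), no filter (0.0594), the 2 stages alone (0.0565), side (0.0519), and without E16 replicate 3 (0.118), in a range of 0.00226 to 0.142. Fgf10 gained a call from E13 to E16 without E16 replicate 1 (0.0180) and without that tooth and E13 replicate 7 (0.0346). In fits of the 2 stages alone, Fgf8 at E14 to E16 and Fgf15 and Fgf16 at E13 to E16 did not pass the filter, and the salmon table gave a value for 9 of 10 ligands. Over all genes, 3767 were called from E13 to E14, and 5855 without E16 replicate 1; 7887 were called from E13 to E16, and 4889 with the salmon table, where 13447 were tested. No paired analysis was possible because each embryo belongs to 1 stage. Weak ligands (Fgf8 at E16, Fgf3, Fgf15, and Fgf16 at E13) had few counts per tooth, which limits their folds.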
